A study of Isoetes sinensis with 3 samples.

Results

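Head-to-head gene pairs were neighbouring genes of *Isoetes sinensis* that point away from each other with their starts at most 1000 bp apart. Pairs were selected on strand and distance alone: genes on the 22 pseudochromosomes were ordered by start, and a pair was taken where the left gene lay on the minus strand, the right gene on the plus strand, and the right start minus the left end was 0 to 1000 bp. This gave 850 pairs with 1700 genes, out of 54041 neighbouring pairs and 54063 genes. The same limit of distance gave 1030 tail-to-tail pairs (plus strand, then minus strand, so that the gene ends face each other) and 3947 same-strand pairs, with which they were compared.

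*I. sinensis* is a tetraploid quillwort, a seed-free vascular plant of the lycophytes. The samples of the study were plant material harvested in Zhejiang, China, with 1 RNA library each of root, shoot and sporophyte (the methods name sporangia), 3 in all, with no treatment and no mutant (no age is stated). The study sequenced RNA of several tissues to help annotate its assembled genome. The values below come from that gene annotation (start, end and strand of each gene, exon, coding segment and untranslated region in bp on the study's own assembly). Expression was not analysed here, so the tissues are not compared, and sequencing depth does not enter. Genes are called by the identifiers of the annotation, which names no function for them.

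In a head-to-head pair the transcription starts of both genes lie on the inner side, and the stretch between them can serve as a promoter for both, a bidirectional promoter. Plant and animal genomes hold many such pairs, and in several species their genes are known to be transcribed together more often than neighbours in general. In tail-to-tail pairs the inner stretch holds the ends of both transcripts, and in same-strand pairs it holds the end of one gene and the promoter of the next. In a tetraploid, each such stretch can be followed on the related chromosome, where a copy of the pair may stand with the same arrangement and spacing, or not. Chromosomes with neighbouring numbers (1 with 2, and so on to 21 with 22) were treated here as 11 chromosome pairs.

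The clearest copy was the pair evm.TU.Chr15.2316 and evm.TU.Chr15.2317 on chromosome 15. The minus-strand gene ran from 42697641 to 42699696 and the plus-strand gene from 42699707 to 42702492, so their starts were 11 bp apart. They had 8 and 11 CDS exons (exons counted by their coding segments) and coding lengths of 930 and 1038 bp. On chromosome 16, evm.TU.Chr16.2176 (41007309 to 41009373) and evm.TU.Chr16.2177_evm.TU.Chr16.2178 (41009384 to 41012173) stood in the same arrangement, again 11 bp apart, with 8 and 11 CDS exons and the same coding lengths of 930 and 1038 bp. The distance between the first coding bases was 387 bp on chromosome 15 and 388 bp on chromosome 16. Copies here and in the next paragraph were found by their internal CDS exon lengths, so equal exon numbers were part of the choice. The distance between the genes was not.

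A longer kept pair was evm.TU.Chr21.3275 (63563357 to 63565120) and evm.TU.Chr21.3276 (63565234 to 63575993) on chromosome 21, 114 bp apart, with 7 and 11 CDS exons. Its copy on chromosome 22, evm.TU.Chr22.3563 (69300007 to 69301758) and evm.TU.Chr22.3564 (69301872 to 69312575), was also 114 bp apart. The coding lengths were 834 and 6297 bp on chromosome 21 and 837 and 6297 bp on chromosome 22, and the coding sequences were 205 bp apart on both. The pair evm.TU.Chr15.112 and evm.TU.Chr15.113, with 5 CDS exons each, was 121 bp apart, as was its copy evm.TU.Chr16.127 and evm.TU.Chr16.128, while the coding sequences were 183 and 168 bp apart. The fourth pair, evm.TU.Chr21.2809 and evm.TU.Chr21.2810, was 95 bp apart with no annotated 5′ untranslated region (UTR), and its copy evm.TU.Chr22.3039 and evm.TU.Chr22.3040 was 95 bp apart too. In these 4 loci the stretch between the genes had the same length on both chromosomes.

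**Figure D1:**
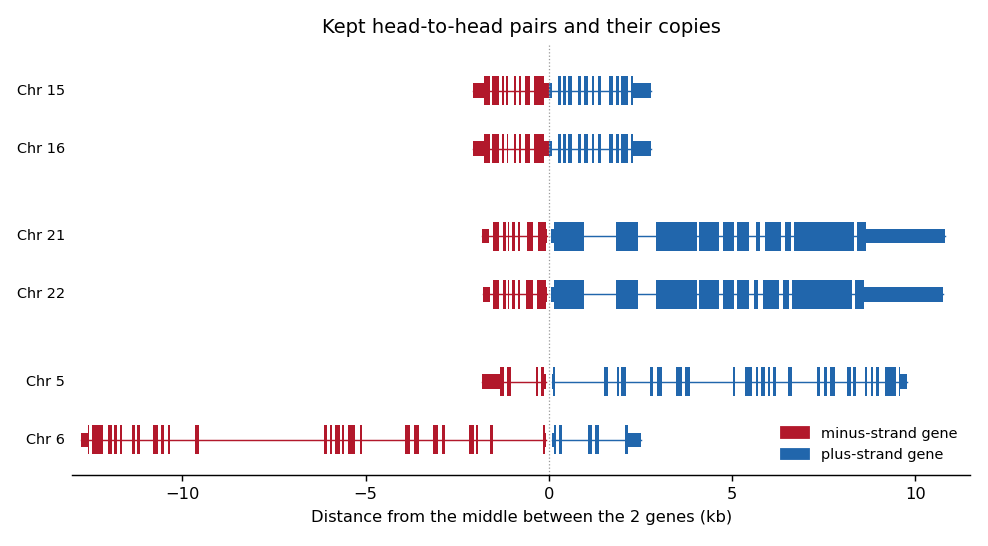
Head-to-head pairs of 3 loci and their copies on the paired chromosome, drawn to scale in kb from the middle between the 2 genes (coding segments as tall boxes, UTRs as low boxes, introns as lines; red for the minus-strand and blue for the plus-strand gene). Exon patterns on both sides matched between chromosomes 15 and 16 and between 21 and 22, which the choice of these copies by their internal CDS exon lengths required. The third locus stood the other way round on chromosome 6, so its 25-exon gene lies right of the middle on chromosome 5 and left of it on chromosome 6.

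Strand and distance chose the pairs, so their number and spacing are a description. Head-to-head neighbours at any distance numbered 12985, and 850 of them (6.55%) lay within 0 to 1000 bp. The share was 7.93% of 12982 tail-to-tail neighbours and 14.1% of 28074 same-strand neighbours. Head-to-head pairs made up 14.6% of the 5827 close neighbours of all arrangements. Another 153 head-to-head neighbours overlapped, against 213 tail-to-tail and 40 same-strand neighbours, and 492 head-to-head neighbours lay in the next kb, from 1001 to 2000 bp, against 552 and 1088.

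Close head-to-head genes were spread almost evenly over the window. The median distance was 469 bp, with quartiles of 228 and 709 bp, against 466 bp in tail-to-tail pairs and 213 bp in same-strand pairs. Each step of 100 bp held 66 to 110 head-to-head pairs, with the highest count from 101 to 200 bp and the lowest from 901 to 1000 bp. Distances up to 100 bp were found in 79 head-to-head pairs (9.29%), 123 tail-to-tail pairs (11.9%) and 1284 same-strand pairs (32.5%). Measured between coding sequences, the medians were 643 bp in head-to-head, 894.5 bp in tail-to-tail and 255 bp in same-strand pairs.

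**Figure D2:**
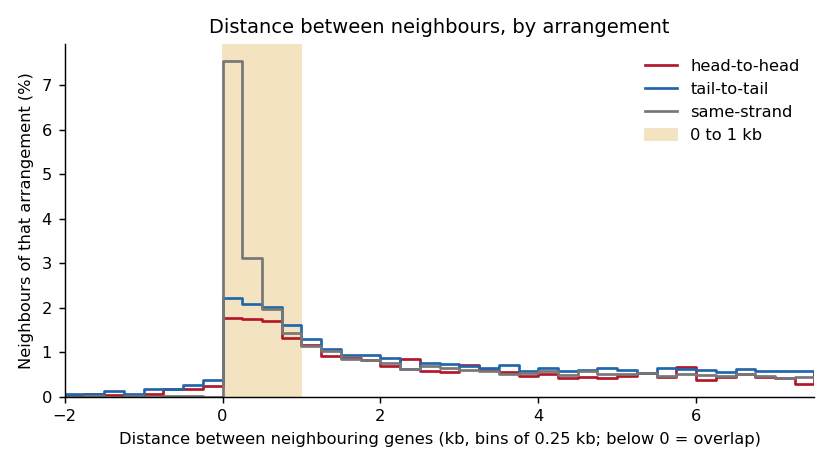
Share of the neighbours of each arrangement (%) by distance in kb, in bins of 0.25 kb, with overlaps below 0 and the window of 0 to 1 kb shaded. Head-to-head and tail-to-tail neighbours follow each other with a low shoulder inside the window, while same-strand neighbours peak at the shortest distances.

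At the edges of the rule, the closest pair was evm.TU.Chr4.436 and evm.TU.Chr4.437, 3 bp apart, and just outside it evm.TU.Chr20.1498 and evm.TU.Chr20.1499 overlapped, with a distance of -5 bp. At the far edge evm.TU.Chr4.1620 and evm.TU.Chr4.1621 were 1000 bp apart, and the nearest pair beyond, evm.TU.Chr3.1570 and evm.TU.Chr3.1571, 1002 bp. Every pseudochromosome held between 29 and 53 head-to-head pairs, with a median of 39.5 and a mean of 38.6 (SD 6.53, n = 22). Per 1000 genes this was 11.8 to 20.0 pairs, and per Mb 0.328 to 0.589 pairs.

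Most head-to-head genes had no other close neighbour, and close neighbours were few in general (5827 of all 54041 neighbouring pairs). Of the 1700 genes, 1504 were in no close tail-to-tail or same-strand pair, 69 were also in a tail-to-tail pair and 127 in a same-strand pair. On their outer sides, the median distance to the next gene was 21056 bp (27265 bp for tail-to-tail and 20614 bp for same-strand pairs). Runs of alternating strands that included a head-to-head pair, with every step within 1 kb, held 2 genes in 782 cases, 3 genes in 65 and 4 genes in 2. One of the longest ran through evm.TU.Chr15.2439, evm.TU.Chr15.2440, evm.TU.Chr15.2441 and evm.TU.Chr15.2442 with distances of 83, 230 and 593 bp, and the other through evm.TU.Chr16.3256, evm.TU.Chr16.3257, evm.TU.Chr16.3258 and evm.TU.Chr16.3259 with distances of 531, 170 and 608 bp.

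The makeup of the gene models differed between the arrangements. Gene models either named Evidence Modeler, the program that joined the predictions, as their source or left the source blank. Among head-to-head genes, 53.4% had no source name and 41.7% had an annotated 5′ UTR, against 67.2% and 53.8% of tail-to-tail genes, 21.7% and 15.8% of same-strand genes, and 55.6% and 45.8% of all genes on the pseudochromosomes. A UTR moves the end of a gene and with it the distance the rule used, so these shares are given without a test. Both models lacked a source name in 245 head-to-head pairs (28.8%), 1 of them in 418 (49.2%) and neither in 187 (22%). In tail-to-tail pairs both lacked it in 517 (50.2%), and in same-strand pairs in 443 (11.2%). Median distances of head-to-head pairs were 304 bp with both models unnamed, 557 bp with 1 and 424 bp with none.

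A 5′ UTR faced the shared stretch from both sides in 155 head-to-head pairs (18.2%), from 1 side in 399 (46.9%) and from neither in 296 (34.8%). The pairs with both UTRs had a median of 257 bp between the genes and 775 bp between the coding sequences, and those with neither had 437.5 bp for both. The closest pair with both UTRs was evm.TU.Chr18.2084 (38002377 to 38004586) and evm.TU.Chr18.2085 (38004593 to 38006205), 7 bp apart, with 5′ UTRs of 458 and 141 bp. Its coding sequences were thus 606 bp apart.

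Head-to-head genes stood between the other arrangements in the size of their coding part. Averaged over the 11 chromosome pairs, they had 3.97 ± 0.21 CDS exons per gene, against 4.48 ± 0.36 in tail-to-tail and 3.41 ± 0.23 in same-strand genes (SD, n = 11 chromosome pairs each). The difference from tail-to-tail genes was -0.51 ± 0.37 and was negative in 10 of 11 (two-sided exact permutation test by flipping signs, adjusted p = 0.00476), and that from same-strand genes was 0.56 ± 0.28 and positive in 11 of 11 (adjusted p = 0.00423). All genes on the pseudochromosomes averaged 4.63 CDS exons.

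Coding length followed the same order, with 964 ± 52.7 bp in head-to-head, 1140 ± 73.3 bp in tail-to-tail and 824 ± 32.7 bp in same-strand genes. Head-to-head genes were shorter than tail-to-tail genes by a difference of -177 ± 96.2 bp (10 of 11 chromosome pairs, exact permutation test, adjusted p = 0.00476) and longer than same-strand genes by 139 ± 67.7 bp (11 of 11, adjusted p = 0.00423). Genes with a single CDS exon made up 26.9 ± 3.35% of head-to-head and 34.1 ± 2.47% of same-strand genes, a difference of -7.20 ± 4.38 percentage points (negative in 10 of 11, exact permutation test, adjusted p = 0.00476). Against the 23.4 ± 3.08% in tail-to-tail genes the difference of 3.43 ± 4.84 did not pass the test (positive in 9 of 11, exact permutation test, adjusted p = 0.0691).

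These p-values cover the spread among chromosome pairs of 1 genome and no biological replicates. When only pairs with both models unnamed were taken, 245 head-to-head pairs remained and no difference in exon number or coding length passed the exact permutation test (CDS exons -0.57 against tail-to-tail, adjusted p = 0.254, and 0.26 against same-strand, adjusted p = 0.585; coding length -198 bp, adjusted p = 0.0859, and 12.4 bp, adjusted p = 1).

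**Figure D3:**
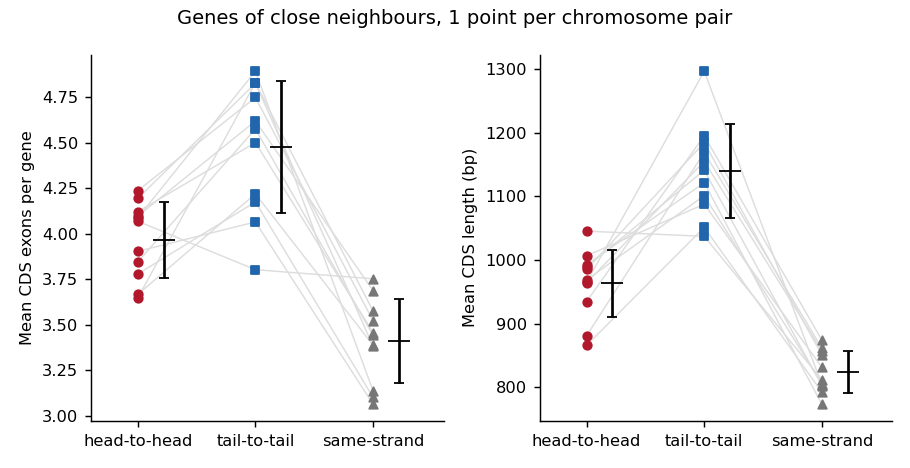
Mean CDS exons per gene and mean coding length in bp of genes in close pairs, 1 point per chromosome pair, joined by grey lines, with the mean and SD over 11 chromosome pairs in black (axes do not start at 0). In 10 of 11 chromosome pairs head-to-head genes lie below tail-to-tail genes, and in all 11 above same-strand genes, in both measures.

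The 2 genes of a head-to-head pair were rarely alike. Across the 850 pairs, Spearman's correlation between the CDS exon numbers of both genes was 0.17, and between their coding lengths -0.01, a description over pairs that share chromosomes. The corresponding correlations of exon number were 0.09 in tail-to-tail and 0.20 in same-strand pairs. The longer coding sequence of a head-to-head pair had a median of 1131 bp and the shorter a median of 492 bp. Both genes had a single CDS exon in 93 pairs (10.9%), against 6.41% of tail-to-tail and 15.2% of same-strand pairs. With at least 3 CDS exons, 1 pair shared its list of internal CDS exon lengths, evm.TU.Chr22.2492 and evm.TU.Chr22.2493, which were 564 bp apart and had 3 CDS exons and 954 bp of coding sequence each.

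At the upper end, evm.TU.Chr2.483 (8819837 to 8822307) and evm.TU.Chr2.484 (8823012 to 8839181) had the most CDS exons, 8 and 35, at 705 bp. The longest summed coding sequence, 729 and 8685 bp, belonged to evm.TU.Chr4.1179 (20336779 to 20339052) and evm.TU.Chr4.1180 (20339737 to 20353827), 685 bp apart.

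The next question was whether head-to-head pairs stood in the same arrangement on the paired chromosome. A gene was matched to a copy where it had at least 5 CDS exons and exactly 2 genes, itself and the copy, held its list of internal CDS exon lengths in order, with 1 of them on each chromosome of a pair. This could be asked of 496 head-to-head genes, of which 189 (38.1%) had a match, against 370 of 719 tail-to-tail genes (51.5%), 546 of 1780 same-strand genes (30.7%) and 7762 of all 18934 genes with that many exons (41.0%). Matched genes in head-to-head pairs were thus 2.43% of all matched genes, those in tail-to-tail pairs 4.77% and those in same-strand pairs 7.03%.

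Over the 11 chromosome pairs, 37.0 ± 7.16% of head-to-head genes were matched, 50.9 ± 8.15% of tail-to-tail and 30.3 ± 5.99% of same-strand genes. The difference from tail-to-tail genes was -14.0 ± 10.9 percentage points (negative in 10 of 11, exact permutation test, adjusted p = 0.00476) and that from same-strand genes 6.66 ± 6.19 (positive in 10 of 11, adjusted p = 0.00476). With a limit of 500 bp the first was -10.5 (exact permutation test, adjusted p = 0.144), and with 2000 bp the second was 2.58 (adjusted p = 0.222). With both models unnamed neither passed the exact test (-10.5, adjusted p = 0.252, and -0.76, adjusted p = 1).

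Where both genes of a head-to-head pair were matched, the copies again formed a head-to-head pair within 1 kb in 8 of 8 cases, the 4 loci given first, each seen from both chromosomes. Tail-to-tail pairs with both genes matched were kept in 40 of 46 cases and same-strand pairs in 54 of 56. In 4 of the tail-to-tail cases the copies were farther apart and in 2 they overlapped. Only 2 chromosome pairs held such pairs in both arrangements compared, so the test could not go below p = 0.5, and the differences were 0 against tail-to-tail and 7.14 percentage points against same-strand (exact permutation test, adjusted p = 1 for both). Of the kept pairs with both genes matched, 50% of head-to-head and 0% of tail-to-tail pairs had the identical distance between coding sequences as a mean over the 2 chromosome pairs, a difference of 50 (exact permutation test, adjusted p = 1), and against same-strand pairs it was 33.3 (adjusted p = 1).

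A larger view was had from 1 matched gene: the arrangement was called kept where the copy of the matched gene had, on the same side, a neighbour in the same arrangement at 0 to 1000 bp. A kept arrangement counts from both chromosomes and an arrangement not kept from 1 chromosome. Kept shares of matched genes, here and below, thus run higher than shares of loci would. Among matched genes of head-to-head pairs, 84 of 189 (44.4%) were kept, in 38 loci. Averaged over chromosome pairs this was 41.4 ± 22.4%, whereas of all other matched genes 1.36 ± 0.53% had a copy with a head-to-head neighbour within 1 kb. The difference of 40.1 ± 22.8 percentage points was positive in 11 of 11 chromosome pairs. Both shares use the strand and distance that selected the pairs, and every match holds in both directions. The difference is therefore a description, with no test.

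Over the whole window, head-to-head pairs were kept less often than the other arrangements by the same measure, a comparison added after the data were seen. The measure uses strand and distance, as the selection did, in the same way for each arrangement. Close neighbours were not equally common to begin with (6.55% of head-to-head, 7.93% of tail-to-tail and 14.1% of same-strand neighbours). The differences are not adjusted for this. Tail-to-tail pairs were kept from 260 of 370 matched genes (70.3%) and same-strand pairs from 392 of 568 (69.0%; genes with a close same-strand neighbour on both sides counted at each side). Over chromosome pairs the means were 41.4 ± 22.4% for head-to-head, 68.4 ± 9.04% for tail-to-tail and 67.2 ± 6.90% for same-strand. The difference from tail-to-tail was -27.0 ± 23.2 percentage points (negative in 9 of 11, exact permutation test, p adjusted over 24 tests = 0.0125) and from same-strand -25.7 ± 21 (negative in 10 of 11, adjusted p = 0.0117). When copies up to 2000 bp apart or overlapping also counted, the differences were -35.4 (exact permutation test, adjusted p = 0.00938) and -26.0 (adjusted p = 0.0117).

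The lower share depended on the limit of distance and the kind of gene model. With a limit of 500 bp, which the copies then also had to meet, the means were 55.4% for head-to-head and 55.4% for tail-to-tail. The difference was -0.07 (exact permutation test, unadjusted p = 0.992), and -13.6 against same-strand (unadjusted p = 0.160). With the limit for copies left at 1000 bp, head-to-head pairs at 0 to 250 and 251 to 500 bp were kept in 81.3% and 25%. Tail-to-tail pairs were kept in 73.5% and 74.5% there. With both models unnamed the means were 59.9% for head-to-head and 71.8% for tail-to-tail, a difference of -11.9 (exact test, unadjusted p = 0.241), and -7.98 against same-strand (unadjusted p = 0.289). With at least 8 CDS exons for a match, the means were 42.9% for head-to-head, 69.1% for tail-to-tail and 60.2% for same-strand. The difference from same-strand was then -17.3 (exact test, unadjusted p = 0.0664), and that from tail-to-tail was -26.2 (unadjusted p = 0.0146).

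The chromosome pairs differed widely. On chromosomes 21 and 22, 16 of 19 matched genes in head-to-head pairs were kept (84.2%), on 3 and 4 10 of 15, on 17 and 18 12 of 19, and on 15 and 16 18 of 33. The share was 2 of 12 (16.7%) on chromosomes 1 and 2 and also on 11 and 12, 2 of 8 on 13 and 14, 4 of 10 on 19 and 20, 6 of 19 on 7 and 8, and 6 of 21 on 5 and 6 as well as on 9 and 10. Without any single chromosome pair, the mean for head-to-head pairs stayed between 37.1% and 43.9%.

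Distance between the genes marked the kept head-to-head pairs. At 0 to 250 bp, 61 of 75 matched genes were kept (81.3%), at 251 to 500 bp 10 of 40 (25%), at 501 to 750 bp 5 of 43 (11.6%) and at 751 to 1000 bp 8 of 31 (25.8%). Tail-to-tail pairs were kept in 73.5%, 74.5%, 70.3% and 56.9% of cases in the same 4 ranges, and same-strand pairs in 79.8%, 66.9%, 55.2% and 49.3%. Kept head-to-head pairs had a median distance of 147 bp and the others 545 bp.

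**Figure D4:**
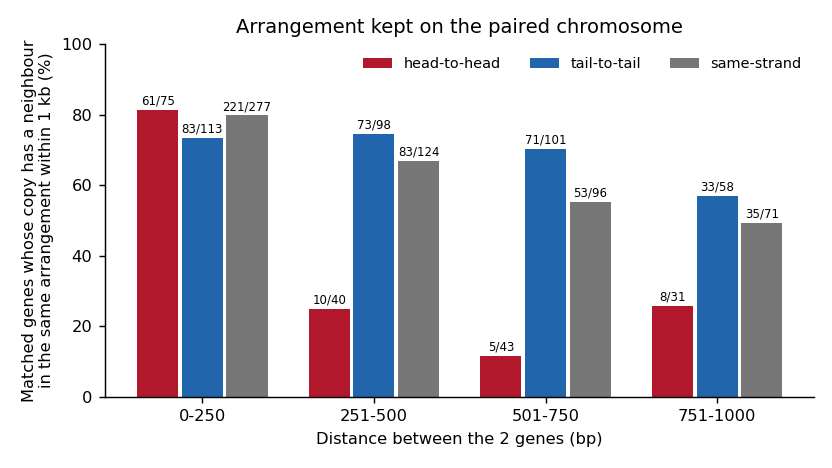
Share of matched genes (%) whose copy on the paired chromosome had a neighbour in the same arrangement within 1 kb, by distance between the genes in bp, with kept and matched genes above each bar. For head-to-head pairs the share is 81.3% up to 250 bp and 11.6% to 25.8% beyond, while for tail-to-tail pairs it is 56.9% to 74.5% throughout and for same-strand pairs it falls in steps, with 79.8% in the nearest range and 49.3% in the farthest.

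The division at 250 bp was chosen after these values were seen and uses the distance that selected the pairs, so the values on either side of it are a description, with no test. Over the 10 chromosome pairs with matched genes on both sides of it, head-to-head pairs were kept in 75.3 ± 29.7% at 0 to 250 bp and 20.9 ± 24.2% at 251 to 1000 bp, a difference of 54.4 ± 38.1 percentage points, positive in 8 of 10. The exceptions were chromosomes 1 and 2 (0 of 2 near, 2 of 10 far) and 17 and 18 (5 of 8 near, 7 of 11 far). In tail-to-tail pairs the same difference was -4.28 ± 33.3. Same-strand pairs were also kept more often when near, in 77.5 ± 13.5% at 0 to 250 bp and 58.1 ± 7.55% at 251 to 1000 bp. At 251 to 1000 bp head-to-head pairs were kept in 21.3 ± 22.9% and tail-to-tail pairs in 67.5 ± 5.35%, and head-to-head pairs had the lower share in 11 of 11 chromosome pairs.

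The kind of gene model moved with distance and with being kept. Both models were unnamed in 46.7% of the 229 head-to-head pairs at 0 to 250 bp. In the 621 pairs at 251 to 1000 bp the share was 22.2%. Pairs with an unnamed model beside a model named Evidence Modeler made up 31.4% of the near and 55.7% of the far pairs. Pairs with both models named Evidence Modeler hardly differed, with 21.8% of the near and 22.1% of the far pairs. A 5′ UTR was annotated for 50.2% of the near and 38.6% of the far genes, and the mean number of CDS exons was 4.02 and 3.94. Of genes with at least 5 CDS exons, 50.7% of the near (75 of 148) and 32.8% of the far (114 of 348) had a match.

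Where the neighbour of the matched gene had no source name, 62 of 91 head-to-head cases were kept (68.1%), and where it was named Evidence Modeler 22 of 98 (22.4%). For tail-to-tail pairs these shares were 75.2% and 55.4%, and for same-strand pairs 72.8% and 67.3%. The low head-to-head share lay with unnamed matched genes beside an Evidence Modeler neighbour, 16 of 89 (18.0%). With both models named Evidence Modeler 6 of 9 were kept (66.7%), and with both unnamed 56 of 84 (66.7%). An Evidence Modeler gene beside an unnamed neighbour was kept in 6 of 7. Unnamed genes beside an Evidence Modeler neighbour were kept in 54.4% of tail-to-tail and 47.6% of same-strand cases. Within neighbours without a source name, 47 of 56 near (83.9%) and 15 of 35 far (42.9%) head-to-head cases were kept, and within Evidence Modeler neighbours 14 of 19 near (73.7%) and 8 of 79 far (10.1%).

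The 105 head-to-head cases that were not kept fell into several kinds. In 57 the copy had a head-to-head neighbour at a larger distance, with a median of 25182 bp and 5 of them from 1001 to 2000 bp. The median over all head-to-head neighbours was 25560 bp, and whether the farther neighbour was the same gene was not tested. In 3 the genes overlapped, and in 45 the neighbour on that side pointed the same way as the matched gene. For tail-to-tail pairs, 61 of 110 were farther (median 5635 bp, against 19970 bp over all tail-to-tail neighbours), 19 overlapped and 30 had a same-strand neighbour. The neighbour of the copy had the coding length of the original neighbour in 1 of the 105 head-to-head cases, against 27 of the 110 tail-to-tail cases. The original neighbours had a median coding length of 528 bp in head-to-head cases that were not kept and 790.5 bp in kept ones, and 27.6% and 73.8% of them had no source name. For example, evm.TU.Chr1.609 had a head-to-head neighbour at 118 bp on chromosome 1, and its copy evm.TU.Chr2.496 had 1 at 42818 bp on chromosome 2.

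In kept head-to-head pairs the spacing was nearly the same on both chromosomes. The distance between the genes was identical in 32 of 84 (38.1%), within 5 bp in 50 (59.5%) and within 50 bp in 72 (85.7%). The distance between the coding sequences was identical in 30 (35.7%), within 5 bp in 58 (69.0%) and within 50 bp in 80 (95.2%). In kept tail-to-tail pairs 9.23%, 30.8% and 78.5% reached these 3 limits between coding sequences, and in same-strand pairs 49.0%, 59.7% and 82.1%. The median change in distance was 3 bp in head-to-head, 21 bp in tail-to-tail and 1 bp in same-strand pairs. For an identical distance between coding sequences, the mean over chromosome pairs was 31.9 ± 33.9% in head-to-head and 10.7 ± 14.9% in tail-to-tail pairs, a difference of 21.1 ± 42.8 that did not pass the test (exact permutation test, adjusted p = 0.182), and -14.2 ± 35.8 against same-strand pairs (adjusted p = 0.274).

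The other gene of a kept head-to-head pair, which the match did not use, had the same coding length as its counterpart in 48 of 84 cases (57.1%) and the same number of CDS exons in 64 (76.2%). In tail-to-tail pairs these shares were 69.2% and 84.6%, and in same-strand pairs 61.7% and 78.6%. Spearman's correlation of the distance with that of the copy was 0.70 over the 84 head-to-head cases, which count every locus from both chromosomes. It was 0.68 in tail-to-tail and 0.84 in same-strand pairs, counted in the same way.

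**Figure D5:**
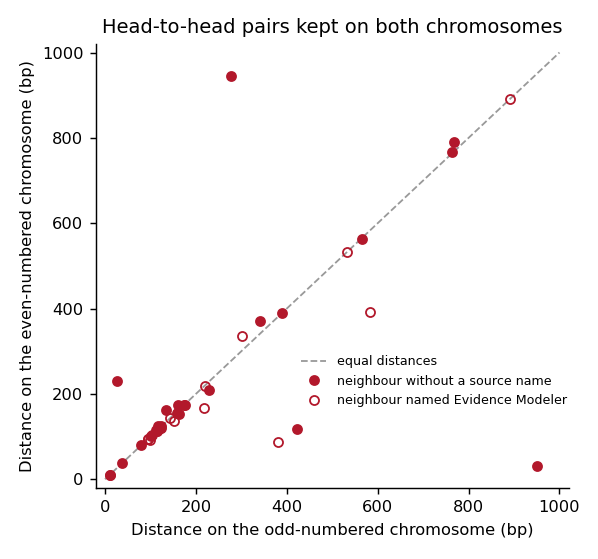
Distance between the genes of each kept head-to-head pair in bp, on the odd-numbered chromosome (x) and on the even-numbered chromosome (y), with the line of equal distances; 42 matched genes in 38 loci. Most points below 250 bp lie on or near the line, and those far from it include 951 bp against 31 bp on chromosomes 7 and 8 and 278 bp against 945 bp on chromosomes 15 and 16.

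Among kept pairs with 1 matched gene, those with most CDS exons were evm.TU.Chr5.1058 and evm.TU.Chr5.1059, with 4 and 25 CDS exons at 176 bp. The copy on chromosome 6, evm.TU.Chr6.1014 and evm.TU.Chr6.1015, had 25 and 5 CDS exons at 174 bp and lay in the opposite direction along the chromosome. The pair evm.TU.Chr13.3788_evm.TU.Chr13.3789 and evm.TU.Chr13.3790 was 390 bp apart and its copy evm.TU.Chr14.3810_evm.TU.Chr14.3811 and evm.TU.Chr14.3812 389 bp apart. The matched gene had 6 CDS exons on both chromosomes and the other gene 23 on chromosome 13 and 22 on chromosome 14. Of the 38 kept loci, 12 (31.6%) had the matched gene on opposite strands of the 2 chromosomes, so that the whole pair was turned round, against 25.8% of all 7762 matched genes. The pairs of chromosomes 3 and 4 included some of the widest kept ones, such as evm.TU.Chr3.2963 and evm.TU.Chr3.2964 at 891 bp and evm.TU.Chr4.2894 and evm.TU.Chr4.2895 at 890 bp, with 2 and 9 CDS exons and coding lengths of 408 and 1491 bp on both.

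Some differences in spacing came with differences in the annotated UTRs or exons. The pair evm.TU.Chr7.2890 and evm.TU.Chr7.2891 was 951 bp apart and its copy evm.TU.Chr8.2579 and evm.TU.Chr8.2580 31 bp apart, while their coding sequences were 1340 and 1302 bp apart. The minus-strand gene of chromosome 7 had 1 CDS exon and no 5′ UTR, and that of chromosome 8 had 3 CDS exons and a 5′ UTR of 147 bp. The pair evm.TU.Chr17.3074 and evm.TU.Chr17.3075 was 26 bp apart and its copy evm.TU.Chr18.3127 and evm.TU.Chr18.3128 230 bp apart, with 375 bp between the coding sequences on both. There the minus-strand gene had a 5′ UTR of 204 bp on chromosome 17 and none on chromosome 18. In evm.TU.Chr15.3116 and evm.TU.Chr15.3117 and their copy evm.TU.Chr16.2884 and evm.TU.Chr16.2885, the coding sequences also lay at different distances, 522 and 1208 bp.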

How the data were processed

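RNA of root, shoot and sporophyte (1 library each, 3 in all) was sequenced by the study, with rRNA removal and strand-specific libraries. Evidence Modeler was used by the authors to merge gene predictions (Augustus, Genscan), protein alignments (GeneWise) and transcript models (PASA); FastQC, HISAT2 and Cufflinks appear in the submitters' processing notes. The deposited values are positions in bp counted from 1, with no normalization. UTRs rest on transcript models, so a gene's end, and its distance to a neighbour, depends on whether a UTR was annotated.

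Neighbours, exon counts and distances were computed with Python 3.11.15, NumPy 2.4.6, pandas 2.3.3 and SciPy 1.17.1, and plotted with Matplotlib 3.10.9. The 3240 genes on unplaced scaffolds were left out. Differences were averaged over 11 chromosome pairs and tested with an exact two-sided sign-flip permutation test (smallest p 0.000977). Values were adjusted by Benjamini-Hochberg over 13 tests, or over 24 with 11 added after the data were seen. Of the 11, 5 divided pairs by distance where their kept shares fell, and their p-values are not given. Of the 13, 1 compared copies of head-to-head genes with those of other matched genes. It used the strand and distance that selected the pairs, and its p-value is not given. Scripts were tested on simulated annotations. Alternatives were other distance limits, coding bounds, filters on models and matches, medians, pooling and leaving out chromosome pairs. Pairs were named by a rule on CDS exons, distance, UTRs and edges of the window; those described from 1 matched gene were chosen after their values were seen. The members and lists were chosen with earlier results of these data known. Genome sequence was not used here.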

Additional observations from a re-analysis of the deposited data

Results flagged for a closer look

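The 689 unplaced scaffolds, which enter no comparison above, held 43 further head-to-head pairs within 1 kb, which is 7.66% of their 561 head-to-head neighbours.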

How the results depend on the processing

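Under other settings, 111 of 130 tested differences kept their side of the threshold without a turned sign. Of 73 values without a test, 63 had no turned sign and moved by no more than the spread among chromosome pairs (for counts, 1.5 times). Without 1 chromosome pair, 133 of 135 and 62 of 63 did so. These counts include differences for pairs with both genes matched, tested over as few as 2 chromosome pairs, which could not pass the threshold. They also include the comparison of copies of head-to-head genes with those of other matched genes. That comparison used the strand and distance that selected the pairs, so its staying on 1 side says nothing further. Changes from or to 0 counted as no turned sign, such as kept pairs against tail-to-tail, 0 in the main setting and 50 at 500 bp. With a limit of 500 bp there were 456 head-to-head pairs and the difference in matched genes from tail-to-tail was -10.5 (exact test, adjusted p = 0.144). Copies then also had to lie within 500 bp, and 55.4% of tail-to-tail copies were kept. With 2000 bp there were 1342 pairs and the difference in matched genes from same-strand was 2.58 (exact test, adjusted p = 0.222). With coding bounds, the difference in genes with 1 CDS exon from tail-to-tail passed the test (4.56, exact test, adjusted p = 0.0175), and without any single chromosome pair it ran from 2.68 to 4.08 (adjusted p from 0.138 to 0.0226), passing without chromosomes 1 and 2 (3.98) or 9 and 10 (4.08).

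With both models unnamed, 245 pairs were left and 76.6% of genes had a 5′ UTR. Differences from tail-to-tail were then -0.57 CDS exons, -198 bp and -10.5 points of matched genes, and from same-strand 0.26 CDS exons, 12.4 bp, -4.05 points of 1-CDS-exon genes and -0.76 points of matched genes, none past the threshold; far fewer pairs were tested. With medians the exon differences were -0.55 (exact test, adjusted p = 0.178) and 0.45 (adjusted p = 0.181). With at least 4 CDS exons for a match, the difference in matched genes from same-strand was 4.40 (exact test, adjusted p = 0.0804) and that in kept pairs -14.3. With at least 8 the difference in kept pairs from same-strand was 100 in 1 chromosome pair, and 60.2% of same-strand copies were kept; seen from 1 matched gene, the kept difference from same-strand then missed the threshold (-17.3, exact test, unadjusted p = 0.0664). Pooled over the genome, kept pairs differed from tail-to-tail by 13.0, and equal spacing differed from same-strand by -12.96, a turned sign that it also had at 500 bp and without chromosomes 21 and 22 (-33.3 in both, 1 chromosome pair each). The cause of these changes was not tested.

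For pairs with both genes matched, leaving out a chromosome pair gave kept differences of 0 to 0 against tail-to-tail and 0 to 14.3 against same-strand, and differences in equal spacing of 0 to 100 and -33.3 to 100. Seen from 1 matched gene, added after the data were seen, the kept difference was -27.0 against tail-to-tail and -25.7 against same-strand, with the wider limit -35.4 and -26.0, and the difference in equal spacing from same-strand was -14.2.

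No paired analysis was possible because no library, and so no replicate number, enters any test; the tests pair arrangements within each chromosome pair. The annotation holds no depth, and the count of matched genes (189 in head-to-head pairs, 75 of them at 0 to 250 bp) limits the precision.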
